A study of Homo sapiens with 80 samples.

Results

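The 37 genes of the human mitochondrial genome (chromosome MT) were followed through 12 treatments of Jurkat T cells, a line of human T lymphocytes. They were all rows of the deposited count table with chromosome MT, 37 of 60663 genes with a usable record, and comprised 13 mRNA, 2 rRNA and 22 tRNA genes. In the first experiment, cells in serological pipettes were spun in a pipette centrifuge at 9 g. The groups hypg020s and hypg075s were spun for 20 s and 75 s, and the groups hypg3, hypg5, hypg7, hypg9, hypg15 and hypg60 for as many minutes as their names give. Groups spun for less than 15 min were first kept at rest in the pipette, so that rest and spin together took 15 min. Controls of the same experiment were kept at rest in a pipette, for 15 min in Ctrl and 60 min in Ctrl60. In the second experiment, cells were spun at 300 g for 5 min and lysed 1 min (wait1min), 4 min (wait4min) or 15 min (wait15min) after the stop, or were held at 42 °C for 5 min (heat), and the common control (A-Ctrl) was lysed directly. RNA of whole cells was depleted of ribosomal RNA and sequenced with strand information. The 9 g groups held 6 libraries each and those of the second experiment 4. Library 75 of hypg15 had 0 mitochondrial counts among 17205655 and was left out, which left 5 libraries in that group and 79 of 80 in all. All groups are the same clonal line without any gene edit, so they represent a single leukaemic genetic background. The labels do not say whether the libraries of a group came from separate cultures, and p-values then measure only the spread between these libraries, which may be technical.

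The mitochondrial genome is a small circular DNA present in many copies per cell. It is transcribed on both strands by the polymerase POLRMT into long RNAs that span many genes, and the tRNAs that lie between most mRNAs and rRNAs are cut out to release them. Its mRNAs encode core subunits of the respiratory chain and of the ATP synthase, and its rRNAs and tRNAs serve the translation of those mRNAs inside the organelle. T cells depend on this machinery for ATP, and all proteins that transcribe and process the RNA come from nuclear genes. In the reference orientation, 28 genes lie on the plus strand and 9 on the minus strand. The latter are the mRNA gene MT-ND6 and 8 tRNA genes.

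Some of the genes named below are short, and the sequences of several are shown to make clear what was counted. They come from GENCODE 29 transcripts (GRCh38, 5′ to 3′), in which all 37 genes have the same positions as in the count table. MT-TV, MT-TD and MT-TW are plus-strand tRNA genes that fell or changed direction between treatments, MT-TE is a minus-strand tRNA gene beside MT-ND6, and MT-ATP8 is an mRNA gene that overlaps the next one. Capitals mark the anticodon in the tRNA genes and, in MT-ATP8, the 46 bases shared with MT-ATP6.
MT-TV (valine, chrMT:1602-1670, plus strand): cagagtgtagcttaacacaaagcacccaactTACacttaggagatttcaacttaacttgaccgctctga
MT-TD (aspartate, chrMT:7518-7585, plus strand): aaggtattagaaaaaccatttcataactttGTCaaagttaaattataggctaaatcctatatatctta
MT-TW (tryptophan, chrMT:5512-5579, plus strand): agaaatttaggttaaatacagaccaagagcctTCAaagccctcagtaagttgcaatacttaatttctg
MT-TE (glutamate, chrMT:14674-14742, minus strand): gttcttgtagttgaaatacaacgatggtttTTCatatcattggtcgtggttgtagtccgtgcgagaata
MT-ATP8 (chrMT:8366-8572, plus strand): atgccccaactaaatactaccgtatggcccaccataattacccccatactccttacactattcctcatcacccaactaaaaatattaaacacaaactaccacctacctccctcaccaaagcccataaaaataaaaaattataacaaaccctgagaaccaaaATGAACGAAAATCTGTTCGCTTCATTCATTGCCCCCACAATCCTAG

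These tRNA genes are 68 or 69 bases long. Where reads of uncut precursor RNA were counted, they cannot be told apart from reads of the tRNA itself. Read pairs that touched 2 genes of a strand were not counted, which removes reads across the shared bases of MT-ATP8 and MT-ATP6 and across the 7 bases shared by MT-ND4L and MT-ND4. Precursor reads that cross into an adjoining gene of the strand, as from MT-TV into MT-RNR1 or MT-RNR2, are lost as well. The tRNA genes were thus counted unequally according to their neighbours, and the effect on comparisons between them was not tested. Levels are given below in CPM, counts scaled to a common library size after TMM normalization, and differences as log2 fold changes with their standard error (SE).

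Mitochondrial mRNAs took a larger share of all counts in every 9 g group than in its control. Their share was 1.48% ± 0.10 (SD, n = 6) in Ctrl and 1.28% ± 0.09 (n = 6) in Ctrl60. It was 1.62% ± 0.10 in hypg020s, 1.90% ± 0.16 in hypg075s, 1.99% ± 0.22 in hypg3, 2.05% ± 0.21 in hypg5, 1.95% ± 0.11 in hypg7, 1.85% ± 0.15 in hypg9 (n = 6 each), 2.29% ± 0.60 in hypg15 (n = 5) and 2.35% ± 0.25 in hypg60 (n = 6). From hypg075s on, every library lay above every library of its control. The ratio to the control was 1.28 in hypg075s, 1.34 in hypg3, 1.39 in hypg5, 1.32 in hypg7, 1.25 in hypg9, 1.54 in hypg15 and 1.84 in hypg60. For each of these groups the two-sided exact permutation test gave p = 0.00216, the smallest p that these group sizes allow, and an adjusted p of 0.00625 over 52 tests of shares.

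The shortest exposure did not pass. In hypg020s the shares ran from 1.49% to 1.73% with a median of 1.62%, against 1.33% to 1.59% with a median of 1.49% in Ctrl, and 3 of 6 libraries lay above all controls. The exact permutation test gave p = 0.0411 and an adjusted p of 0.0578, while the adjusted p was 0.0433 when rRNA, 7SL and 7SK were removed from the total. None of the 8 tests between neighbouring times passed after adjustment. The step from hypg020s to hypg075s was the nearest, with a difference of 0.281 percentage points and an adjusted p of 0.0519 in the exact permutation test. In hypg15 the 5 libraries held 1.82%, 1.88%, 2.21%, 2.21% and 3.32%, so that its mean rests in part on library 77. Without that library the difference from Ctrl was 0.548 percentage points, against 0.806 with it, and the adjusted p was 0.0206 or less in each exact permutation test with a library left out. The share of 7SL and 7SK was also higher in hypg15, at 6.27% to 8.76%, than in Ctrl, at 4.92% to 5.89%, and its part in the result was not tested on its own. With 7SL, 7SK and rRNA all left out of the total, the difference in mRNA share was 0.891 percentage points.

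The controls differed as well. The share in Ctrl60 was 0.867 times that in Ctrl (exact permutation test, p = 0.0108, adjusted p = 0.0234), and 3 of 6 libraries lay below all those of Ctrl. Against Ctrl in place of Ctrl60, the ratio for hypg60 was 1.59. The deposited column names call Ctrl60 "Ctrl plus HEPES", and whether its medium differed is not given in the sources used here. The hypg3 and hypg15 libraries have numbers from 69 to 80 and the other 9 g libraries have numbers up to 48, so a difference in handling between these ranges and the treatment cannot be told apart.

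**Figure D1:**
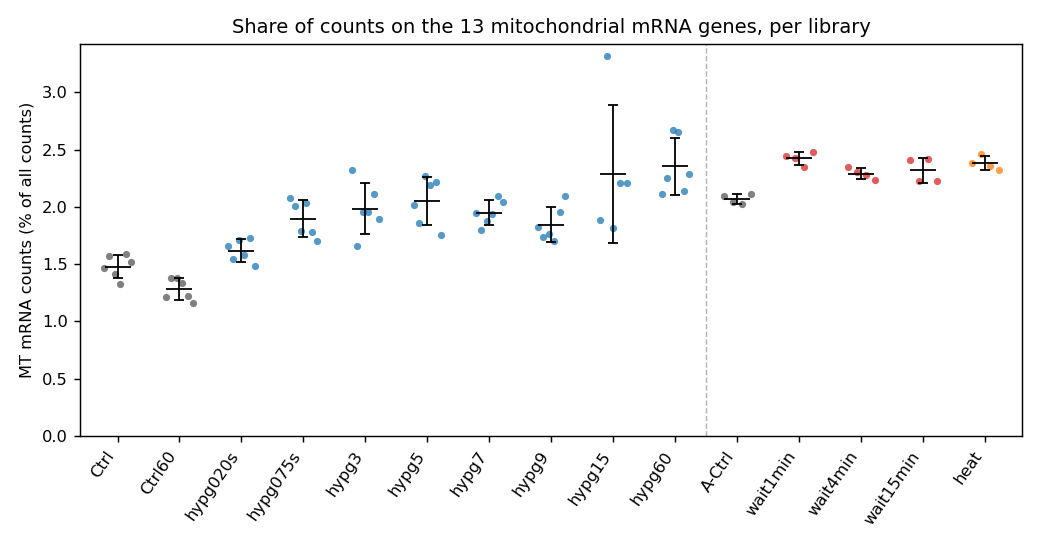
Share of all counts on the 13 mitochondrial mRNA genes in percent (vertical axis, from 0) for each library (points) in 15 groups, with the mean and SD in black; the dashed line separates the 9 g experiment from the 300 g and heat experiment. The Ctrl libraries lie between 1.33% and 1.59%, and those of hypg60 between 2.11% and 2.67%.

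Gene by gene, the changes at 9 g were mostly increases. After the filter on low counts, 13 mRNAs, 2 rRNAs and 11 tRNAs were tested in all 13 comparisons, 3 tRNAs in some and 8 tRNAs in none. The untested tRNA genes, MT-TL1, MT-TN, MT-TK, MT-TG, MT-TR, MT-TH, MT-TS2 and MT-TL2, had means of 0.709 to 6.33 counts per library. In hypg020s 8 of 29 tested members were called higher (edgeR's quasi-likelihood test, Benjamini-Hochberg adjusted p under 0.05) and 0 lower, where 6.66% of all genes tested were called higher and 8.58% lower. In hypg075s 21 were called higher and 1 lower of 29, against 16.8% and 14.4% of all genes. In hypg3 17 were called higher and 0 lower of 28, against 16.9% and 24.4%. In hypg5 17 were higher and 1 lower of 28, against 4.33% and 1.69%. In hypg7 16 were higher and 1 lower of 28, against 6.64% and 6.19%. In hypg9 14 were higher and 4 lower of 28, against 11.3% and 8.34%. In hypg15 20 were higher and 1 lower of 28, against 25.4% and 27.9%. In hypg60 21 were higher and 1 lower of 28, against 17.1% and 13%.

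The count of mitochondrial genes called higher thus stood well above the share among all genes at each 9 g time. The number called lower was 0 to 4. In hypg5 (1 of 28, against 1.69%) and hypg9 (4 of 28, against 8.34%) the share called lower rested on few genes. Its difference from that of all genes was not tested. Those called lower in hypg9 included both rRNA genes, MT-RNR1 and MT-RNR2, which could not be followed with any precision. The median log2 fold change of the tested members was 0.20 in hypg020s, 0.40 in hypg075s, 0.42 in hypg3, 0.49 in hypg5, 0.33 in hypg7, 0.28 in hypg9, 0.63 in hypg15 and 0.93 in hypg60, while that of all genes lay between -0.02 and 0.02. TMM scaling places the bulk of genes near 0, so the median of all genes does not show that other RNA was unchanged. In bulk RNA, more mitochondrial RNA per cell and a larger share of cells rich in it cannot be told apart, nor can a loss of other RNA from the total. Between Ctrl60 and Ctrl, 0 of 27 members were called, 18 had an unadjusted p under 0.05, and DESeq2 called 1, MT-ND6, lower. Of all genes, 0.00621% were called higher there and 0.00621% lower.

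The plus-strand mRNAs moved together at 9 g. Across 59 libraries, the level of each of 11 of them had a Pearson correlation of 0.85 to 0.99 with the summed level of the others, as a description of libraries that share the scaling, and MT-ND3 had 0.45. MT-ATP6, a subunit of the membrane part of the ATP synthase, was called higher in all 8 groups at 9 g. Its level was 1783 to 2167 CPM in Ctrl, with a median of 1965, and 2767 to 3500 in hypg60, with a median of 3265, against 1567 to 1893 in Ctrl60. The hypg60 range lay entirely above that of its control, and the log2 fold change was 0.94 (SE 0.08, adjusted p = 2.4e-06). MT-ND1, a membrane subunit of complex I (NADH dehydrogenase), was also called higher in all 8. Its level rose from a median of 1321 CPM (1190 to 1442) in Ctrl60 to 2671 (2056 to 3040) in hypg60, a log2 fold change of 1.00 (SE 0.10), with no overlap. In hypg020s its log2 fold change was 0.23 (SE 0.07, adjusted p = 0.0345), and the ranges of 1549 to 2005 CPM and 1394 to 1678 CPM overlapped. The median level of MT-ATP6 in CPM was 2264 in hypg020s, 2657 in hypg075s, 2759 in hypg3, 2671 in hypg5, 2663 in hypg7, 2436 in hypg9 and 3033 in hypg15. That of MT-ND1 was 1856 in hypg020s, 2162 in hypg075s, 2285 in hypg3, 2241 in hypg5, 2123 in hypg7, 1836 in hypg9 and 2570 in hypg15. For both genes the highest of the 9 g medians was that of hypg60. MT-ND4L, another complex I subunit, was called higher in 7 of 8 groups, with log2 fold changes of 0.12 in hypg020s, where it did not pass, to 1.07 in hypg60. Its median level in CPM was 192 in Ctrl, 204 in hypg020s, 234 in hypg075s, 240.2 in hypg3, 289 in hypg5, 256 in hypg7, 221 in hypg9, 306 in hypg15, 168 in Ctrl60 and 331 in hypg60.

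Of the 7 mRNAs of complex I, 3 were called higher in hypg020s, 6 in hypg075s, hypg3, hypg7, hypg9 and hypg60, and 7 in hypg5 and hypg15. MT-CYB, the cytochrome b of complex III, was called higher at every time from hypg075s on, with log2 fold changes of 0.27 to 0.94. Both mRNAs of the ATP synthase (complex V) were called higher in all 8 groups. The 3 mRNAs of complex IV (cytochrome c oxidase) were called less evenly, with 0 in hypg020s, 1 in hypg5 and hypg9, 2 in hypg075s, hypg3 and hypg7, and 3 in hypg15 and hypg60. MT-CO1, the catalytic subunit, was the member of complex IV that passed in 7 of 8 groups. Calls of MT-CO2 and MT-CO3 depended on the setting, and in hypg5 all 3 mRNAs of complex IV passed with total counts only or with the GC curve removed. With all groups in a single model, MT-ND1, MT-ND2, MT-ATP8 and MT-ATP6 did not pass in hypg020s (adjusted p = 0.0711 to 0.166), nor did MT-CYB (0.0635) and MT-ATP8 (0.0859) in hypg9.

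**Figure D2:**
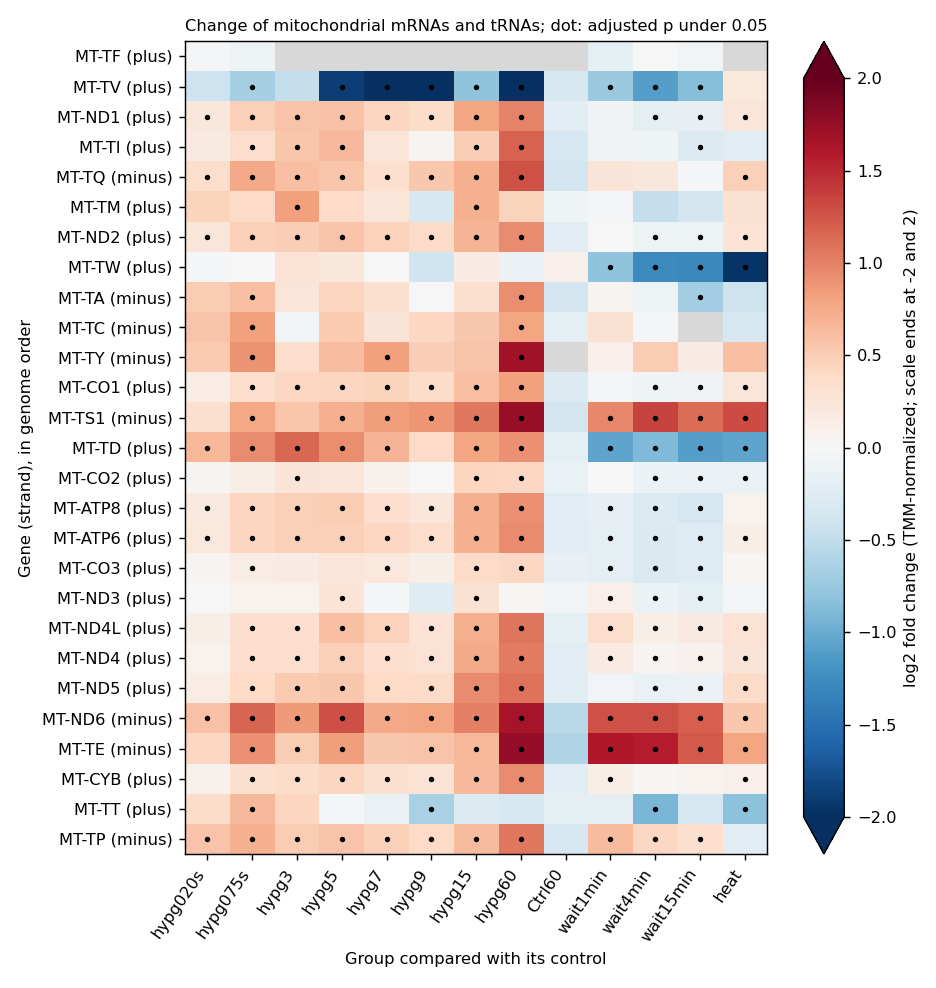
Log2 fold change (colour, TMM-normalized, scale from -2 to 2) of 27 tested mitochondrial mRNA and tRNA genes in genome order (rows, with their strand) in 13 comparisons with the control of each group (columns); dots mark an adjusted p under 0.05 in edgeR's quasi-likelihood test and grey cells were not tested. MT-ND6 is marked in every treatment, MT-TV is lower in most 9 g groups, and MT-TW is marked as lower at 300 g and after heat.

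MT-CO2, MT-CO3 and MT-ND3 were called least often among the mRNAs at 9 g on TMM-scaled values. They were chosen as a set after their values were seen, and no test was made of the set. MT-CO2, the subunit that receives electrons from cytochrome c, was called higher in 3 of 8 groups. Its level was 1420 to 1765 CPM (median 1558) in Ctrl and 1385 to 1923 (median 1452) in hypg9, and its log2 fold change in hypg60 was 0.41 (SE 0.08, adjusted p = 0.0017). MT-ND3, a small complex I subunit, was called higher in hypg5 and hypg15 alone at 9 g. Its level was 152 to 176 CPM in Ctrl60 and 131 to 192 in hypg60, with a log2 fold change of 0.03 (SE 0.08, adjusted p = 0.81), where the plus-strand mRNAs had a median of 0.94. The median level of MT-CO2 in CPM was 1558 in Ctrl, 1617 in hypg020s, 1688 in hypg075s, 1896 in hypg3, 1831 in hypg5, 1662 in hypg7, 1452 in hypg9, 1922 in hypg15, 1431 in Ctrl60 and 1954 in hypg60. That of MT-ND3 was 174 in Ctrl, 178 in hypg020s, 173 in hypg075s, 186 in hypg3, 217 in hypg5, 170.2 in hypg7, 139.6 in hypg9, 209 in hypg15, 168 in Ctrl60 and 176 in hypg60. The lowest median of MT-ND3 was that of hypg9, where it was called lower with no filter on low counts (-0.24, adjusted p = 0.0318) but not on the filtered table (-0.23). With the GC curve removed MT-ND3 was also called higher in hypg075s (0.27) and hypg3 (0.43), and was at 0.75 in hypg15. With all groups in a single model it did not pass in hypg5 (adjusted p = 0.071). MT-CO2 was also called higher in hypg075s with the GC curve removed (0.16), and in hypg5 with total counts only (0.27) or the curve removed (0.25). MT-CO3, called in hypg075s, hypg7, hypg15 and hypg60, did not pass in hypg075s with RLE factors (adjusted p = 0.0536), no filter (0.0597) or all groups in a single model (0.248), nor in hypg7 with the single model (0.078). It was called higher in hypg3 with RLE factors, total counts only, DESeq2 or the GC curve removed (0.18 to 0.27), in hypg5 with total counts only, DESeq2, no filter or the curve removed (0.22 to 0.26), and in hypg9 with total counts only (0.16). In counts, the 3 genes together made up 22.2% ± 0.9 (SD, n = 6) of plus-strand mRNA counts in Ctrl and between 18.8% and 20.8% in the 7 groups from hypg020s to hypg15. The mean was 23.4% ± 0.7 in Ctrl60 and 17.2% ± 1.0 in hypg60 (n = 6 each), and all 6 libraries of hypg60 lay below those of Ctrl60. This share compares genes within a library and does not depend on the scaling between libraries.

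MT-ND6, a complex I subunit and the single mRNA gene of the minus strand, was called higher in all 8 groups at 9 g and had a larger log2 fold change than any plus-strand mRNA in each of them. Its level was 57.0 to 95.2 CPM in Ctrl, with a median of 87.5. It was 89.6 to 137 (median 130) in hypg020s, 154 to 220 (median 174) in hypg075s, 121 to 175 (median 155) in hypg3, 176 to 234 (median 193) in hypg5, 110 to 176 (median 139) in hypg7, 109 to 182 (median 133) in hypg9 and 90.9 to 238 (median 148) in hypg15. From hypg075s to hypg9 no library overlapped with Ctrl, and in hypg020s and hypg15 at least the lowest library did. The log2 fold changes were 0.58 (SE 0.12) in hypg020s, 1.16 (SE 0.13) in hypg075s, 0.86 (SE 0.12) in hypg3, 1.29 (SE 0.11) in hypg5, 0.76 (SE 0.12) in hypg7, 0.79 (SE 0.14) in hypg9 and 1.01 (SE 0.20) in hypg15. Adjusted p ran from 1.9e-05 in hypg075s to 0.0068 in hypg020s.

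After 60 min MT-ND6 was at 37.9 to 68.8 CPM (median 56.5) in Ctrl60 and at 111 to 238 (median 172) in hypg60, without overlap, and the log2 fold change was 1.65 (SE 0.18, adjusted p = 1.4e-05). Between Ctrl60 and Ctrl its log2 fold change was -0.56 (SE 0.14, adjusted p = 0.66), which did not pass.

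Set against the 12 plus-strand mRNAs of the same library, MT-ND6 had 0.550 ± 0.097 counts per 100 in Ctrl and 0.432 ± 0.076 in Ctrl60 (SD, n = 6 each). The ratio was 0.746 ± 0.091 in hypg020s, 0.969 ± 0.099 in hypg075s, 0.755 ± 0.077 in hypg3, 0.991 ± 0.046 in hypg5, 0.730 ± 0.089 in hypg7, 0.778 ± 0.102 in hypg9, 0.694 ± 0.165 in hypg15 (n = 5) and 0.759 ± 0.183 in hypg60. All 6 libraries lay above the controls in hypg075s, hypg3 and hypg5, 5 of 6 in hypg020s, hypg7, hypg9 and hypg60, and 3 of 5 in hypg15. The ratio was looked at after the fold changes had been seen and is given without a test.

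**Figure D3:**
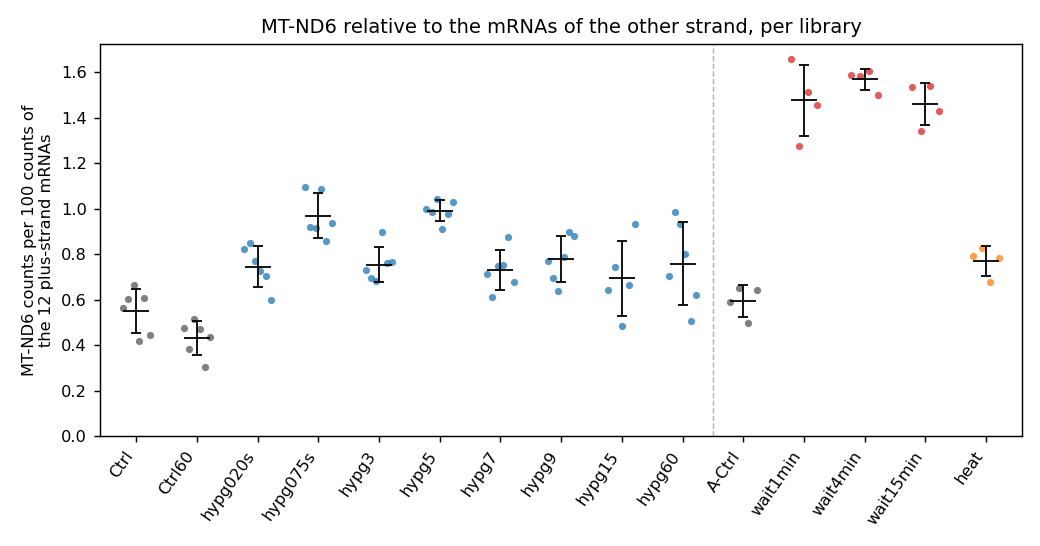
MT-ND6 counts per 100 counts of the 12 plus-strand mRNAs of the same library (vertical axis, from 0) for each library (points) in 15 groups, with the mean and SD in black; the dashed line separates the experiments. The 12 libraries spun at 300 g lie between 1.28 and 1.66, and the 4 of A-Ctrl between 0.499 and 0.652.

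After 300 g, MT-ND6 rose more than 2-fold at every waiting time on TMM-scaled values, while both the size and the direction of the differences in plus-strand mRNAs depended on the scaling. The mRNA share of all counts was 2.07% ± 0.04 in A-Ctrl, with 2.10%, 2.04%, 2.02% and 2.11% in its 4 libraries. It was 2.43% ± 0.06 in wait1min (2.45%, 2.43%, 2.35% and 2.48%), 2.29% ± 0.05 in wait4min (2.35%, 2.31%, 2.28% and 2.24%) and 2.32% ± 0.11 in wait15min (2.41%, 2.23%, 2.42% and 2.22%). No spun library overlapped with A-Ctrl, and the ratios were 1.17, 1.11 and 1.12. The exact permutation test gave p = 0.0286 for each, the smallest that 4 against 4 libraries allow, with an adjusted p of 0.0413. Beside this, the share of the abundant noncoding RNAs 7SL and 7SK was 3.63% to 3.97% in A-Ctrl and 1.35% to 1.83% in the spun groups. With these RNAs and rRNA both left out of the total, the differences in mRNA share were 0.318, 0.176 and 0.206 percentage points, against 0.356, 0.223 and 0.252 with them, and the part of 7SL and 7SK alone was not tested.

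On TMM-scaled values, 8 of 29 members were called higher and 6 lower in wait1min, 7 and 13 of 29 in wait4min, and 7 and 14 of 28 in wait15min. Among all genes, 41.4% were higher and 40.1% lower in wait1min, 41.7% and 40.6% in wait4min, and 41.8% and 40.5% in wait15min, so that a larger share of all genes than of the members was called at each time. With total counts as the only scaling, the median log2 fold change of all genes was 0.25, 0.27 and 0.27 in the order of waiting times, against 0.0055, 0.0091 and 0.010 on TMM-scaled values. On total counts, 16 members were higher and 2 lower in wait1min, 15 and 4 in wait4min, and 13 and 3 in wait15min. All genes then split into 49.7% higher and 30.4% lower, 51% and 30%, and 50.9% and 29.9%. With a curve of GC content removed from each library, 3 members were higher and 18 lower in wait1min, 3 and 21 in wait4min, and 3 and 19 in wait15min, where 34.4% of all genes were higher and 39.9% lower in wait1min, 35.2% and 40.7% in wait4min, and 35.1% and 40.4% in wait15min.

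For the plus-strand mRNAs as a group, no single direction at 300 g therefore held under the 3 scalings. MT-ND1 had log2 fold changes of -0.07, -0.19 and -0.16 in the order of waiting times, and of 0.18, 0.07 and 0.10 with total counts only, of which all but the first passed on TMM-scaled values and all passed on total counts. MT-ATP6 and MT-ATP8 were called lower at all 3 times, with MT-ATP6 at -0.17 (SE 0.04), -0.29 (SE 0.02) and -0.26 (SE 0.03), and with total counts only MT-ATP6 was at 0.07, -0.03 and 0.0025, of which the first passed. Removal of the GC curve gave MT-ATP6 -0.55, -0.65 and -0.62. MT-ND4L was called higher at all 3 times with log2 fold changes of 0.35 (SE 0.05), 0.11 (SE 0.04) and 0.18 (SE 0.06), but lower after removal of the GC curve, with -0.21, -0.43 and -0.36. In CPM, the median level of MT-ATP6 was 3348 in A-Ctrl, 2911 in wait1min, 2716 in wait4min, 2806 in wait15min and 3387 in heat. MT-ND1 had medians of 2379 in A-Ctrl, 2277 in wait1min, 2076 in wait4min, 2167 in wait15min and 2640 in heat, and MT-ND4L of 325 in A-Ctrl, 421 in wait1min, 355 in wait4min, 379 in wait15min and 379 in heat. MT-CO2 had medians of 1955 in A-Ctrl, 1883 in wait1min, 1788 in wait4min, 1769 in wait15min and 1642 in heat, and MT-ND3 of 190.0 in A-Ctrl, 204 in wait1min, 175 in wait4min, 167 in wait15min and 174 in heat. The range over the 12 genes on TMM-scaled values was -0.18 to 0.35 in wait1min, -0.29 to 0.11 in wait4min and -0.34 to 0.18 in wait15min. After removal of the GC curve it was -1.40 to 0.04, -1.46 to -0.05 and -1.53 to -0.02, with MT-ATP8 lowest at each time and MT-ND3 next, at -1.02, -1.20 and -1.27.

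The increase of MT-ND6 kept its direction under each of these scalings. Its level was 139, 149, 116 and 152 CPM in A-Ctrl. It was 375, 302, 330 and 339 in wait1min, 349, 340, 338 and 310 in wait4min, and 350, 282, 346 and 288 in wait15min. The lowest spun library thus lay at 282 CPM and the highest control at 152. The log2 fold changes were 1.28 (SE 0.08, adjusted p = 3.2e-11), 1.28 (SE 0.06, adjusted p = 1.1e-14) and 1.20 (SE 0.08, adjusted p = 7.2e-11). They were 1.53, 1.54 and 1.46 with total counts only, and 0.64, 0.66 and 0.58 after removal of the GC curve, each past the threshold. Per 100 plus-strand mRNA counts, MT-ND6 had 0.595 ± 0.070 in A-Ctrl, 1.48 ± 0.16 in wait1min, 1.57 ± 0.05 in wait4min and 1.46 ± 0.09 in wait15min (SD, n = 4 each), which is 2.48, 2.64 and 2.46 times the control.

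After heat, most mitochondrial mRNAs were called higher. The mRNA share was 2.38% ± 0.06, with 2.39%, 2.46%, 2.36% and 2.32% in the 4 libraries, all above A-Ctrl, a ratio of 1.15 (exact permutation test, p = 0.0286, adjusted p = 0.0413). Of 28 members, 12 were called higher and 4 lower, against 10.6% and 10.2% of all genes. Of the mRNAs 9 were higher, with log2 fold changes up to 0.55, and 1 was lower, MT-CO2, at -0.13 (SE 0.03, adjusted p = 0.0073). With all groups in a single model MT-ATP6 (0.05) and MT-CYB (0.04) did not pass, and MT-CO2 was at -0.20. The call of MT-CYB was also lost without library 50 or 51 of A-Ctrl or library 65 or 66 of heat (adjusted p = 0.0723 to 0.105), and with total counts only MT-ATP8 was called higher as well (0.11). MT-ND6 was at 193, 203, 171 and 189 CPM, all above A-Ctrl, with a log2 fold change of 0.55 (SE 0.08, adjusted p = 8.7e-05). Next to it, MT-ND5, the plus-strand complex I gene at the other side of their shared boundary, was at 0.38 (SE 0.04). The share of MT-CO2, MT-CO3 and MT-ND3 in plus-strand mRNA counts was 19.2% ± 0.3 in A-Ctrl and 16.6% ± 0.4 after heat (SD, n = 4 each), without overlap. At 300 g it was 18.4% ± 0.5 in wait1min, 18.2% ± 0.1 in wait4min and 18.1% ± 0.3 in wait15min, 0.96, 0.95 and 0.94 times that of A-Ctrl, with 3, 4 and 4 of 4 libraries below all controls.

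**Figure D4:**
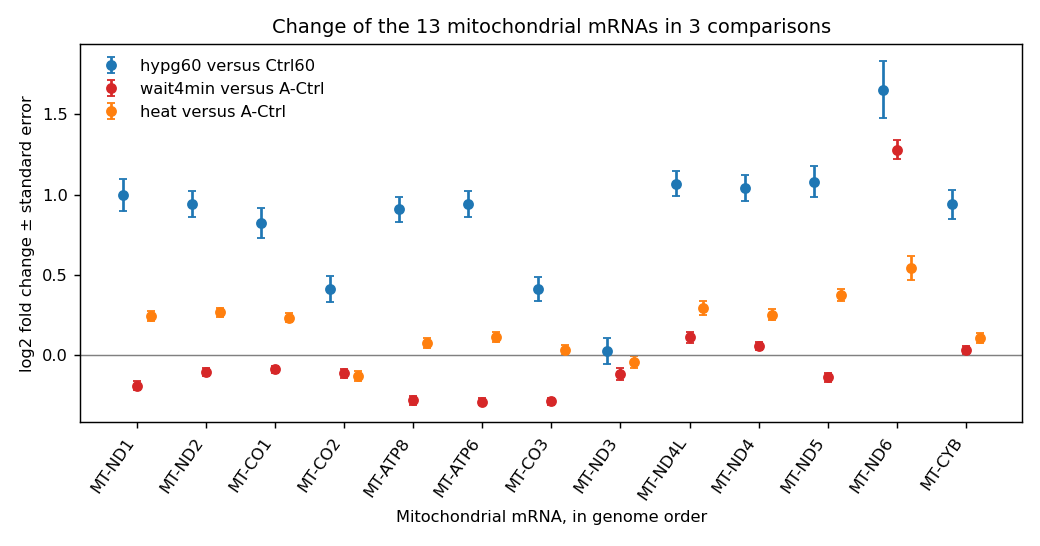
Log2 fold change with its standard error (vertical axis) of the 13 mitochondrial mRNAs in genome order (horizontal axis) for hypg60 against Ctrl60, and for wait4min and heat against A-Ctrl, on TMM-scaled values. MT-ND6 is highest in all 3 comparisons (1.65, 1.28 and 0.55), and MT-CO2, MT-CO3 and MT-ND3 lie lowest in hypg60.

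Every call of a minus-strand tRNA gene at 9 g was an increase, while plus-strand tRNA genes were called in both directions. All 22 together took 0.00175% to 0.00366% of counts in the group means, and their ratio to the control was 1.32 in hypg020s, 1.53 in hypg075s, 1.41 in hypg3, 1.42 in hypg5, 1.29 in hypg7, 1.21 in hypg9, 1.41 in hypg15 and 1.99 in hypg60. Each passed the exact permutation test, with adjusted p up to 0.0270. The ratio was 1.43, 1.31 and 1.19 after 300 g (adjusted p = 0.0413 each in the exact permutation test) and 0.953 after heat (0.276). The minus-strand genes carry glutamine (MT-TQ), alanine (MT-TA), asparagine (MT-TN), cysteine (MT-TC), tyrosine (MT-TY), serine (MT-TS1), glutamate (MT-TE) and proline (MT-TP), and MT-TN was not tested. At 9 g none of them was called lower, and the number called higher of 7 tested was 2 in hypg020s, 7 in hypg075s, 3 in hypg3, 4 in hypg5, hypg7, hypg9 and hypg15, and 7 in hypg60. Set against plus-strand mRNA counts of the same library, they rose less, and no test was made. This ratio was 1.30 times that of the control in hypg020s, 1.33 in hypg075s, 1.07 in hypg3 and 1.11 in hypg5. It was 1.09 in hypg7, 1.13 in hypg9, 1.00 in hypg15 and 1.28 in hypg60. At 300 g it was 1.55, 1.52 and 1.32 in the order of waiting times, and after heat 0.97. MT-TP had the most counts of the tRNA genes, with a mean of 348 per library. Its level was 6.10 to 10.1 CPM (median 8.11) in Ctrl and 10.2 to 14.9 (median 12.1) in hypg020s, without overlap, and its log2 fold changes at 9 g ran from 0.41 in hypg9 to 1.05 in hypg60, all called. MT-TQ was called higher in all 8 groups too, with 1.28 (SE 0.19) in hypg60, where its level was 2.81 to 6.12 CPM against 1.82 to 2.34 in Ctrl60. Median levels of MT-TP in CPM were 8.11 in Ctrl, 12.1 in hypg020s, 13.6 in hypg075s, 11.4 in hypg3, 12.1 in hypg5, 11.5 in hypg7, 10.8 in hypg9, 11.8 in hypg15, 6.49 in Ctrl60 and 14.0 in hypg60. Those of MT-TQ were 2.52 in Ctrl, 3.51 in hypg020s, 4.27 in hypg075s, 3.7 in hypg3, 3.48 in hypg5, 3.19 in hypg7, 3.61 in hypg9, 3.78 in hypg15, 1.92 in Ctrl60 and 5.15 in hypg60. Their 9 g medians all lay above that of the control. The call of MT-TQ in hypg020s was lost with total counts only, no filter, all groups in a single model or the GC curve removed (adjusted p = 0.0536 to 0.114), and that in hypg7 with no filter (0.0772) or all groups in a single model (0.131). With no filter, the calls of MT-TC in hypg60 (0.0598) and MT-TS1 in hypg5 (0.0728) were lost. Removal of the GC curve added calls, all higher, of MT-TA and MT-TE in hypg020s, MT-TY in hypg3, MT-TE in hypg7, and MT-TA, MT-TC and MT-TY in hypg15. Other settings added higher calls too, of MT-TA in hypg020s with DESeq2 (adjusted p = 0.0493) or all groups in a single model (0.0432), MT-TE in hypg7 with DESeq2 (0.0464), MT-TS1 in hypg3 with the single model (0.0486) and MT-TC in hypg15 without library 78 (0.0445). With the GC curve removed MT-TP was at 0.98 in hypg020s and 1.36 in hypg15. MT-TE and MT-TS1 had 1.76 (SE 0.25) and 1.75 (SE 0.19) in hypg60. In hypg15 the call of MT-TE was lost without library 77 (0.48).

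At 300 g, MT-TE had 0.96, 1.77, 0.92 and 0.99 CPM in A-Ctrl and 4.00, 3.19, 3.54 and 3.20 in wait1min, so that all spun libraries lay above the controls. Its log2 fold changes were 1.61 (SE 0.18), 1.57 (SE 0.18) and 1.23 (SE 0.21) in the order of waiting times, but 0.30, 0.32 and -0.03 after removal of the GC curve, none past the threshold. MT-TS1 was called higher at all 3 times under both, with 0.96, 1.35 and 1.12, and with 1.11, 1.49 and 1.27 after removal of the curve. MT-TA, the alanine tRNA gene, was called lower in wait15min on TMM-scaled values, at -0.69 (SE 0.19, adjusted p = 0.0026). It stayed lower there with total counts only (-0.43) and with the curve removed (-1.17), and with the curve removed it was also called lower in wait1min (-0.44) and wait4min (-0.57). MT-TP was at 0.63, 0.41 and 0.34 and turned to -1.37, -1.49 and -1.58 with the curve removed. Median levels of MT-TP in CPM were 9.01 in A-Ctrl, 14.0 in wait1min, 12.2 in wait4min, 11.3 in wait15min and 7.31 in heat, and those of MT-TQ were 3.77 in A-Ctrl, 4.72 in wait1min, 4.17 in wait4min, 3.67 in wait15min and 4.71 in heat. MT-TQ was called higher in wait1min and wait4min with total counts only (0.50 and 0.49), with the GC curve removed (0.37 and 0.33) and without library 52 of A-Ctrl, 54 of wait1min or 57 of wait4min, but in neither on all libraries with TMM. After heat, MT-TQ, MT-TS1 and MT-TE were called higher, with 0.48, 1.31 and 0.79, and the value of MT-TE no longer passed without library 66 of heat (0.64, adjusted p = 0.0581) or library 51 of A-Ctrl (0.67, adjusted p = 0.0743). MT-TP and MT-TA had -0.22 and -0.41 after heat and did not pass, but MT-TP was called lower with all groups in a single model (-0.29, adjusted p = 0.0027) and without library 49 of A-Ctrl (-0.27, adjusted p = 0.0333), and MT-TA in the single model (-0.48, adjusted p = 0.0481).

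Among the plus-strand tRNA genes, MT-TV, the valine tRNA gene between the rRNA genes MT-RNR1 and MT-RNR2, was called lower in 6 of 8 groups at 9 g. Its counts were low, 14 to 30 per library (median 24) in Ctrl and 11 to 25 (median 16.5) in Ctrl60, against 3 to 11 (median 6) in hypg5, 1 to 10 (median 1.5) in hypg7, 0 to 4 (median 3) in hypg9 and 1 to 6 (median 2.5) in hypg60. In these 4 groups no library overlapped with its control. The log2 fold changes were -1.88 (SE 0.26) in hypg5, -2.58 (SE 0.43) in hypg7, -3.31 (SE 0.34) in hypg9 and -2.55 (SE 0.30) in hypg60, each past the threshold in edgeR's quasi-likelihood test. In hypg075s and hypg15 it was called at -0.67 (SE 0.22) and -0.81 (SE 0.33), with overlap. In hypg075s the call was lost with all groups in a single model (adjusted p = 0.0867) or the GC curve removed (0.0901). In hypg15 it was lost with the GC curve removed (0.287) and without any of 8 single libraries, at adjusted p up to 0.114. In hypg020s and hypg3 it did not pass, with -0.41 (SE 0.22) and -0.47 (SE 0.25). At 300 g MT-TV was called at -0.75, -1.10 and -0.85, and after heat it was at 0.21 (SE 0.28, adjusted p = 0.65). The 300 g values were -1.51, -1.82 and -1.58 with the GC curve removed. With total counts only, wait1min (-0.51) and wait15min (-0.59) did not pass. The call in wait1min was also lost without library 50 or 52 of A-Ctrl or library 55 or 56 of wait1min, with values from -0.71 to -0.57. RNA of both neighbouring genes was a target of the rRNA depletion, whose part in the values of MT-TV was not tested.

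MT-TD, the aspartate tRNA gene before MT-CO2, rose at 9 g and fell in the second experiment. It was called higher in 7 of 8 groups at 9 g, with 0.45 to 0.79 CPM (median 0.61) in Ctrl and 1.12 to 1.80 (median 1.34) in hypg3, without overlap, a log2 fold change of 1.14 (SE 0.16, adjusted p = 0.0001). In hypg9 it did not pass, with 0.39 (SE 0.16, adjusted p = 0.11). In A-Ctrl it had 2.23, 1.46, 2.10 and 1.37 CPM, above all libraries of wait1min (1.08, 0.91, 0.64 and 0.83), wait15min (0.94, 0.95, 0.89 and 0.55) and heat (0.52, 0.93, 0.69 and 1.11). The log2 fold changes were -1.06, -0.88 and -1.10 at 300 g and -1.05 after heat, all called. Their size at 300 g depended on the scaling, with -0.82, -0.62 and -0.84 on total counts and -4.11, -3.74 and -4.02 with the GC curve removed, all past the threshold. MT-TD has a GC content of 23.5%, and how well the curve fits at so low a content was not tested. At 9 g, removal of the curve gave 1.34 in hypg020s, 1.84 in hypg15 and 1.68 in hypg60, and MT-TD then passed in hypg9 (0.74) but not in hypg7 (0.72, adjusted p = 0.0567).

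MT-TW, the tryptophan tRNA gene between MT-ND2 and MT-CO1, was not called at 9 g, with log2 fold changes of -0.40 to 0.29. In the second experiment it had 2.11, 2.32, 3.02 and 2.20 CPM in A-Ctrl and 0.58, 0.45, 0.62 and 0.68 after heat, a log2 fold change of -1.96 (SE 0.19, adjusted p = 2.4e-06). At 300 g it was called at -0.80 (SE 0.15), -1.27 (SE 0.17) and -1.29 (SE 0.17), and all 12 spun libraries, at 0.85 to 1.46 CPM, lay below A-Ctrl. These values lay between -3.04 and -2.62 with the GC curve removed, and were, with total counts only, -0.55, -1.01 and -1.03, all past the threshold. The absence of calls at 9 g depended on the scaling as well, since MT-TW was called higher in hypg3 (0.74) and hypg15 (0.80) with the curve removed, and with RLE factors higher in hypg3 (0.32) and lower in hypg9 (-0.42). MT-TI, the isoleucine tRNA gene beside MT-TQ, was called higher in 5 of 8 groups at 9 g, up to 1.18 (SE 0.14) in hypg60, and lower in wait15min, at -0.27 (SE 0.12). Its median level in CPM was 2.04 in Ctrl, 2.26 in hypg020s, 2.55 in hypg075s, 2.95 in hypg3, 3.21 in hypg5, 2.14 in hypg7, 1.91 in hypg9, 3.03 in hypg15, 1.48 in Ctrl60, 3.24 in hypg60, 3.83 in A-Ctrl, 3.61 in wait1min, 3.64 in wait4min, 3.13 in wait15min and 3.13 in heat. With the GC curve removed it was called lower at all 3 waiting times, at -2.58, -2.45 and -2.68, was called higher in hypg020s (0.71), and was at 1.38 in hypg15. The call in hypg075s was lost with total counts only, DESeq2, no filter or all groups in a single model (adjusted p = 0.0541 to 0.111). The call in wait15min was lost with total counts only (-0.0098) and without library 49 or 52 of A-Ctrl or 62 or 64 of wait15min, and that in hypg15 without library 80 (0.39). MT-TT, the threonine tRNA gene after MT-CYB, was higher in hypg075s (0.64, SE 0.17) and lower in hypg9 (-0.65, SE 0.19), wait4min (-0.92, SE 0.21) and heat (-0.82, SE 0.20). With the GC curve removed MT-TT was called lower at all 3 waiting times, at -1.69, -2.34 and -1.76, higher in hypg020s (0.64) and hypg3 (0.84), and no longer lower in hypg9 (-0.55, adjusted p = 0.0608). It was also called higher in hypg3 with all groups in a single model (0.46), and lower in wait15min without library 62 (-0.47). MT-TM, the methionine tRNA gene, was called higher in hypg3 (0.81) and hypg15 (0.71). The latter call was lost with total counts only (adjusted p = 0.0531) and without library 2, 3, 4 or 5 of Ctrl or 76, 77 or 80 of hypg15, with values down to 0.48. MT-TM was also called higher in hypg60 with total counts only (0.48) or the GC curve removed (0.48). It was called lower in wait4min with the curve removed (-0.64) or without library 51 of A-Ctrl (-0.60) or 57 of wait4min (-0.61), and in wait15min without library 63 (-0.62). MT-TF, the phenylalanine tRNA gene, was not called in its 5 tests on TMM-scaled values, and was called lower at all 3 waiting times with the GC curve removed, at -1.18, -0.96 and -1.01.

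**Figure D5:**
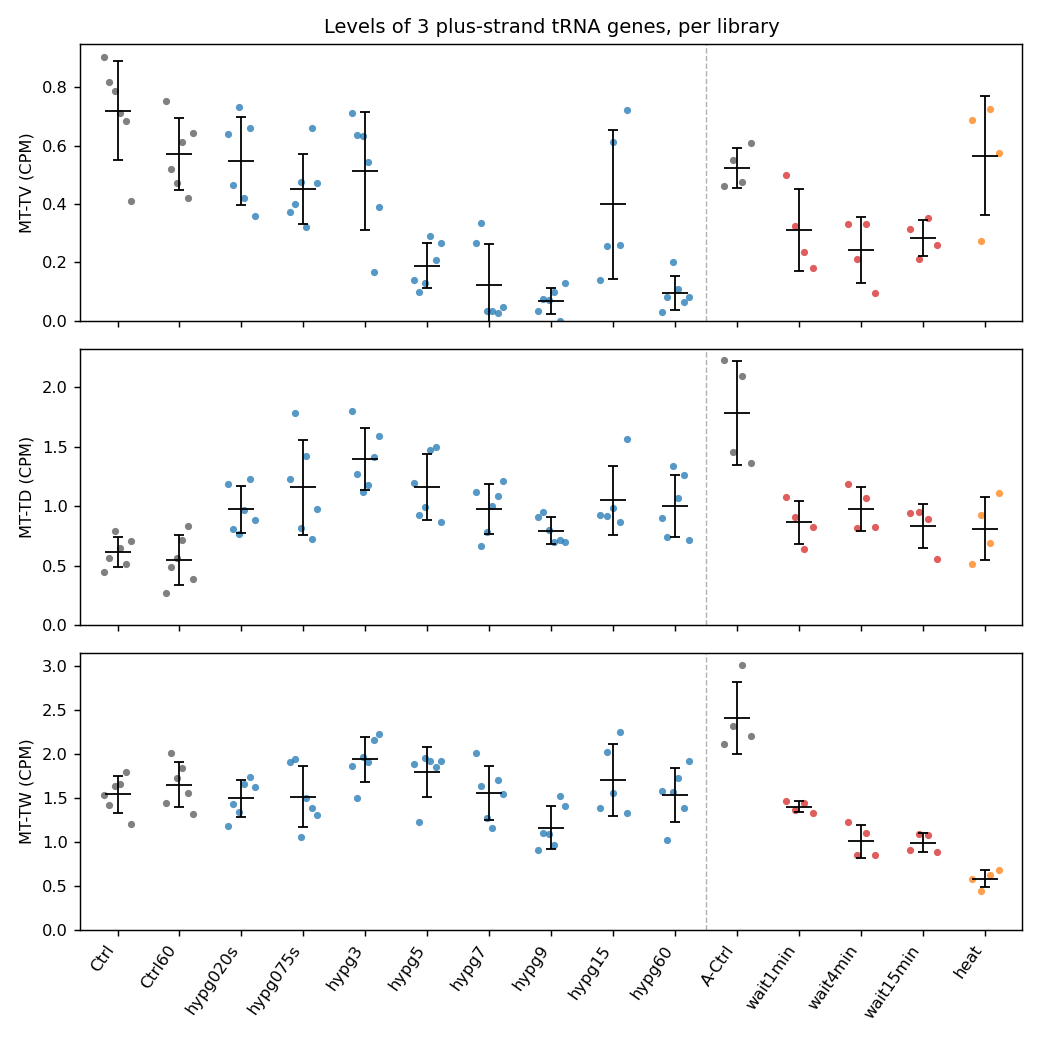
Levels in CPM (vertical axes, from 0) of the plus-strand tRNA genes MT-TV, MT-TD and MT-TW for each library (points) in 15 groups, with the mean and SD in black; the dashed line separates the experiments. MT-TV is at most 0.13 in hypg9 and at least 0.41 in Ctrl, and MT-TW lies at 0.45 to 0.68 after heat. MT-TD was called higher than the control in 7 of 8 groups at 9 g, and lower than A-Ctrl at 300 g and after heat.

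The rRNA genes MT-RNR1 (12S) and MT-RNR2 (16S) could not be followed with any precision, since rRNA was depleted before sequencing. Together they took 6.5e-05% to 0.0173% of counts per library. MT-RNR1 had 10 to 2552 counts in Ctrl and 50 to 3749 in hypg3, and its coefficient of variation within groups, like that of MT-RNR2, lay between 30% and 179%, against a median of 8.01% for the mRNAs. The median level of MT-RNR1 in CPM was 12.4 in Ctrl, 7.06 in hypg020s, 4.9 in hypg075s, 2.66 in hypg3, 8.15 in hypg5, 7.22 in hypg7, 4.45 in hypg9, 12.3 in hypg15, 4.88 in Ctrl60, 0.903 in hypg60, 1.66 in A-Ctrl, 0.836 in wait1min, 1.3 in wait4min, 3.94 in wait15min and 1.48 in heat. That of MT-RNR2 was 7.95 in Ctrl, 2.59 in hypg020s, 2.96 in hypg075s, 1.45 in hypg3, 3.87 in hypg5, 2.64 in hypg7, 2.03 in hypg9, 5.68 in hypg15, 2.56 in Ctrl60, 0.614 in hypg60, 0.992 in A-Ctrl, 1.51 in wait1min, 1.87 in wait4min, 3.5 in wait15min and 1.04 in heat. In no group did the rRNA share pass the exact permutation test, with adjusted p of at least 0.152. In hypg9 both genes were called lower, with log2 fold changes of -2.83 (SE 0.92, adjusted p = 0.041) and -3.14 (SE 0.92, adjusted p = 0.025), and all libraries of hypg9 lay within the range of Ctrl. With total counts only the first did not pass (adjusted p = 0.0556). With no filter on low counts, MT-RNR1 (-2.22, adjusted p = 0.0386) and MT-RNR2 (-2.53, adjusted p = 0.0149) were also called lower in hypg020s, MT-RNR2 in hypg7 (-2.30, adjusted p = 0.0379) and MT-RNR1 after heat (-0.70, adjusted p = 2.5e-05). MT-RNR2 was called higher in wait4min (1.63, SE 0.57) and wait15min (1.77, SE 0.38), and without library 57 the value in wait4min was 0.28 (adjusted p = 0.47). Leaving out a single library also gave calls that were not made on all libraries, for MT-RNR1 at 2.03 in wait15min without library 51 and at -2.09 in wait1min without library 56, and for MT-RNR2 at 1.11 in wait1min without library 51.

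Some mitochondrial reads may have been counted elsewhere and some nuclear reads here. The annotation holds 393 nuclear copies of mitochondrial genes, which took 1.80 to 3.27 counts for every 100 mitochondrial counts. The largest were MTATP6P1, with a mean of 12476 counts per library, and MTND2P28, with 2180, both on chromosome 1. Between 7 and 18 of the copies passed the filter on low counts. Reads shared exactly by a copy and its mitochondrial original were not counted, and how many such reads each gene lost was not tested. The block on chromosome 1 also holds copies of MT-ND1, MT-CO1, MT-CO2, MT-ATP8 and MT-CO3. Among 9001 genes at 10 CPM or more on average, with levels taken as differences from the mean of the own experiment, the level of MTND2P28 had the highest Pearson correlation with the summed mitochondrial mRNAs over 79 libraries, 0.93, followed by UBR4 (0.87), DYNC1H1 (0.86), NOTCH2 (0.85) and CELSR2 (0.84). The points share libraries and scaling, and the values are a description.

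Nuclear genes whose products make, cut, stabilise or degrade mitochondrial RNA or copy its DNA form a list of 33, of which 32 were tested at 9 g. The numbers called higher and lower were 1 and 6 in hypg020s, 4 and 10 in hypg075s, 3 and 18 in hypg3, 0 and 2 in hypg5, 0 and 2 in hypg7, 2 and 4 in hypg9, 6 and 20 in hypg15 and 2 and 11 in hypg60, with median log2 fold changes from -0.28 to -0.04. Over all genes, the shares called lower at these times were 8.58%, 14.4%, 24.4%, 1.69%, 6.19%, 8.34%, 27.9% and 13%, and those called higher 6.66%, 16.8%, 16.9%, 4.33%, 6.64%, 11.3%, 25.4% and 17.1%. In hypg7 the share of the list called lower lay near that of all genes, and all genes were themselves called lower more often than higher in hypg020s, hypg3 and hypg15. POLRMT, the polymerase, had log2 fold changes of 0.04 to 0.32 at 9 g and was called in 3 of 8 groups. SSBP1, a single-strand DNA-binding protein of mitochondria, TFAM, which packs the DNA and starts transcription, and FASTKD2, an RNA-binding protein, were the genes of the list called most often. TFAM was at -0.53 in hypg020s, -1.06 in hypg15 and -0.71 in hypg60, each past the threshold. At 300 g the list had 19 genes higher and 12 lower of 33 in wait1min and wait4min, and 18 and 12 in wait15min, with TFAM at 2.08, 1.97 and 1.95 and POLRMT at -0.81, -0.79 and -0.80. With 41.4% to 41.8% of all genes higher and 40.1% to 40.6% lower at 300 g, the share of the list called lower lay near that of all genes and the share called higher above it. No test of the list was made. After heat 2 were higher and 3 lower of 32, with a median of 0.01, against 10.6% higher and 10.2% lower among all genes. With so few genes called, both shares of the list lay near those of all genes.

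Per length, the order of the mRNAs in Ctrl ran from MT-ATP6, with a median of 2885 CPM per kb, through MT-CO2 (2277), MT-CO3 (2020), MT-CO1 (1951), MT-ATP8 (1736) and MT-ND1 (1624) down to MT-ND3 (503), MT-ND5 (467) and MT-ND6 (167). Between them lay MT-ND2 (1129), MT-ND4 (1076), MT-CYB (998) and MT-ND4L (646). The ranges over libraries did not overlap between MT-ATP6 and MT-CO2, MT-CO2 and MT-CO3, MT-ND1 and MT-ND2, MT-CYB and MT-ND4L, MT-ND4L and MT-ND3, and MT-ND5 and MT-ND6, while the other neighbours in this order overlapped. In A-Ctrl MT-ATP6 (4916) and MT-ND6 (274) again stood at the ends. The 79 libraries held 22634465 to 41893490 counts, of which 328542 to 950713 were mitochondrial. All 11 T-cell markers examined, such as CD3E and LCK, were present in every library. Of 6 markers of other cell types, MS4A1, CSF1R, EPCAM and HBB had at most 3 counts in any library, CD14 was at most at 0.724 CPM, and COL1A1 was at 3.67 to 9.04 CPM.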

How the data were processed

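The authors trimmed and aligned paired reads to GRCh38 and deposited raw counts of read pairs per gene on the reverse strand. Submitters' notes name Trim Galore 0.6.5, STAR 2.7.3a, featureCounts 2.0.1 and DESeq2 1.28.1, and the table header featureCounts 2.0.3 with Ensembl 104. A length column, in bases, is another deposited unit. 1 record broken over 3 lines was omitted. Each column was assigned by sample title. Column names differ from the titles in 3 groups (plus HEPES for Ctrl60, instant for wait1min, 1min for wait4min), and the titles were followed. Libraries used held 22634465 to 41893490 counts. For each comparison, edgeR 4.0.16 was run with its quasi-likelihood test (R 4.3.3; TMM, filterByExpr with a minimum count of 10, Benjamini-Hochberg over all genes tested, adjusted p under 0.05), with only the 2 groups compared, after checks on simulated data. Shares were compared by two-sided exact permutation tests of the absolute difference over libraries, adjusted over 52 tests. Python 3.11.15 and scipy 1.17.1 were used. Alternatives were RLE factors, total counts, DESeq2 1.42.0, no filter, all groups in a single model, a GC curve removed (lowess, span 0.3, prior count 2), and, in 5 comparisons (hypg15, wait1min, wait4min, wait15min and heat), each library left out. Ratios within libraries and the ratio of hypg60 to Ctrl were added after seeing the data. A further marker of another cell type is not reported here.

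Genes named were MT-ND6 and the rRNA genes, the 4 mRNAs called in most and the 2 in fewest treatments (ties by the mean absolute log2 fold change, which took MT-ND1 and MT-ND4L from 5 mRNAs with 11 calls each, the others being MT-ND2, MT-ND4 and MT-ATP8), the 3 tRNA genes with most counts tested in every comparison, the 3 genes of the nuclear list called most often and the 5 genes most alike (pseudocount 0.5 CPM). Further members were named after their values were seen. The genes and lists were chosen with earlier results of these data known. Intervals for counting error were not computed. The number of libraries and, for tRNA and rRNA genes, low counts limit the precision.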

Additional observations from a re-analysis of the deposited data

Results flagged for a closer look

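Of 90 combinations of group and measure, 7 held a library that stood far from the rest of its group relative to the group's range, where chance gives about 1 in 20. In hypg15, library 77 had a mitochondrial share of 3.32% of counts, against 1.82% to 2.21% in the other 4, and an mRNA share of 3.32%, against 1.82% to 2.21%. Per 1000 plus-strand mRNA counts, the minus-strand tRNA genes had 1.55 counts in library 14 of hypg020s, against 1.12 to 1.27 in the others, and 1.24 in library 80 of hypg15, against 0.881 to 0.944. The share of MT-CO2, MT-CO3 and MT-ND3 in plus-strand mRNA counts was 23.9% in library 4 of Ctrl, against 21.6% to 22.2%. It was 17.3% in library 29 of hypg5, against 19.3% to 20.2%, and 19.7% in library 51 of A-Ctrl, where the other 3 lay at 18.99% to 19.02%. The causes were not tested.

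For MT-TT and MT-ND3 the called direction differed between times of the same treatment, and the difference between times was not tested. MT-TT had a log2 fold change of 0.64 in hypg075s and -0.65 in hypg9. MT-ND3 had 0.11 in wait1min, -0.11 in wait4min and -0.18 in wait15min, and with total counts only it had 0.35, 0.14 and 0.08, of which the last did not pass (adjusted p = 0.258). With the GC curve removed it was called lower at all 3 times, at -1.02, -1.20 and -1.27. The call of MT-ND3 was lost without library 53 of wait1min (0.09), without library 60 of wait4min (-0.08), and without library 62 (-0.13) or 64 (-0.12) of wait15min.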

How the results depend on the processing

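The direction of the total and mRNA shares held in every alternative run, and all calls on them held except in hypg020s. Without rRNA, 7SL and 7SK in the total, the difference in hypg020s was 0.147 percentage points for all mitochondrial genes and 0.146 for the mRNAs, each with an adjusted p of 0.0433 in the exact permutation test. The number of members called moved by more than 1.5 times in 2 cases. It was 5 in hypg020s with all groups in a single model, against 8, and 1 in Ctrl60 with DESeq2, against 0. Leaving out single libraries gave 18 to 22 members called in hypg15, 13 to 16 in wait1min, 19 to 21 in wait4min, 19 to 22 in wait15min and 14 to 18 after heat. Libraries were left out in these 5 comparisons only, so that the other 9 g groups and Ctrl60 have no such check. At 9 g and after heat no called member changed sign under the alternatives that were run.

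At 300 g the sign depended on the scaling for many members. Each entry below for total counts or the GC curve passed the threshold on TMM-scaled values, under the alternative or in both. Changes of sign that passed in neither are not listed. With total counts only, the log2 fold change took the opposite sign in wait1min MT-ND1 (0.18), MT-ND2 (0.24), MT-CO1 (0.20), MT-CO2 (0.24), MT-ATP8 (0.075), MT-ATP6 (0.071), MT-CO3 (0.065) and MT-ND5 (0.19), in wait4min MT-ND1 (0.070), MT-ND2 (0.15), MT-CO1 (0.17), MT-CO2 (0.15), MT-ND3 (0.14) and MT-ND5 (0.12), and in wait15min MT-ND1 (0.10), MT-ND2 (0.16), MT-CO1 (0.18), MT-CO2 (0.14), MT-ATP6 (0.0025), MT-CO3 (0.0025), MT-ND3 (0.079) and MT-ND5 (0.14). With the GC curve removed, the log2 fold change took the opposite sign in wait1min MT-TA (-0.44), MT-ND3 (-1.02), MT-ND4L (-0.21), MT-ND4 (-0.20) and MT-TP (-1.37), in wait4min MT-ND4L (-0.43), MT-ND4 (-0.29), MT-CYB (-0.054) and MT-TP (-1.49), and in wait15min MT-ND4L (-0.36), MT-ND4 (-0.27), MT-TE (-0.028) and MT-TP (-1.58). With single libraries left out, MT-RNR1 in wait4min ran from -1.69 without library 57 to 1.59 without library 51. Total counts differ from TMM by a shift common to all genes, and the cause of the shift and of the GC curve was not tested. MT-TD, MT-TI, MT-TP and MT-TW, which moved far with the curve removed, have a GC content of 23.5%, 29.0%, 33.8% and 35.3%. How well the curve fits at so low a content was not tested. No paired analysis was possible because each library number in the labels belongs to a single group. The small counts of tRNA genes and the depletion of rRNA limit what can be said of those members, and the libraries' number limits all p-values.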
